A study of Mus with 9 samples.

Results

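The Cyp4a and Cyp4b1 genes encode fatty acid omega-hydroxylases of the mouse kidney. The members described here are the 7 genes that the deposited table names Cyp4a10, Cyp4a12a, Cyp4a12b, Cyp4a14, Cyp4a31, Cyp4a32 and Cyp4b1. They were chosen by gene name from the 54532 genes of the table, and all 7 passed the filter on low counts that left 15902 genes for testing. Kidney RNA of 9 male C57BL/6 mice was sequenced, with 3 mice each in the 18 mo, 21 mo and 21 mo/O304 groups. All of these mice had lost a single kidney by surgery at 18 months of age. The 18 mo mice were killed 1 week after the operation and received no injections. The 21 mo mice were given saline into the peritoneum for 12 weeks, and the 21 mo/O304 mice were given O304 at 10 mg/kg/day by the same route and for the same time. O304 is a small molecule that activates AMPK, a kinase that senses low cellular energy. Between the 18 mo group and the others, age, time after surgery and injection changed together and cannot be told apart.

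Omega-hydroxylases are cytochrome P450 enzymes of the endoplasmic reticulum that add a hydroxyl group to the far end of a fatty acid chain. The hydroxylated acid is then oxidised to a dicarboxylic acid, which peroxisomes shorten, so the route takes up fatty acids that mitochondria do not burn. In the kidney some Cyp4a enzymes, Cyp4a12a among them, also convert arachidonic acid to a hydroxylated lipid that acts on vessel tone and on salt transport in the tubule. Cyp4a10 and Cyp4a14 are classical targets of the fatty acid receptor PPARα, whereas Cyp4a12a is a male-biased gene that androgen induces. Cyp4b1 is an enzyme found mostly outside the liver, which hydroxylates fatty acids and also activates some foreign compounds.

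The counts on genes summed to between 15636378 and 18396725 per library, so depth differed little between the mice. The spread between mice did differ, with a biological coefficient of variation of 18.1% in 18 mo mice, 44.2% in 21 mo mice and 20.6% in 21 mo/O304 mice. The kidney label held in all libraries, because none of the 23 markers of the proximal tubule, the segment where most Cyp4a RNA is made, was at 0. The summed level of these markers was 48738 to 58489.9 CPM (counts scaled to the library size) in 18 mo mice and 55518 to 62941 CPM in 21 mo/O304 mice. In the 21 mo group it was 47936, 16536 and 4043 CPM in replicates 1, 2 and 3. The 10 markers of tubule injury summed to 1047 to 1139.5 CPM in 18 mo mice, to 1669, 14216 and 17468 CPM in 21 mo mice and to 1077 to 1579.8 CPM in 21 mo/O304 mice. For 21 mo against 18 mo, 22 of the 23 tubule markers were lower and all 10 injury markers were higher in fitted values, of which 0 passed the test. Replicates 2 and 3 of the 21 mo group therefore stood apart from the other libraries in both marker lists. Fewer cells of a type and less RNA per cell cannot be told apart in such bulk samples.

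All 7 genes lie within 348678 bases of chromosome 4, in coordinates that match the GRCm38 build. Cyp4a12a (ENSMUSG00000066071) runs from 115299046 to 115332815, Cyp4a12b (ENSMUSG00000078597) from 115411624 to 115439034 and Cyp4a10 (ENSMUSG00000066072) from 115518264 to 115533649. Cyp4a31 (ENSMUSG00000028712) runs from 115563649 to 115579015 and Cyp4a32 (ENSMUSG00000063929) from 115600969 to 115621602. These 5 genes are on the plus strand. Cyp4a14 (ENSMUSG00000028715), from 115486200 to 115496142, and Cyp4b1 (ENSMUSG00000028713), from 115624725 to 115647723, are on the minus strand. The counts are of whole genes, exons joined, with lengths from 1536 bases for Cyp4a32 to 2601 bases for Cyp4a14. Cyp4a12a and Cyp4a12b are near-identical copies, and Cyp4a10, Cyp4a31 and Cyp4a32 are close copies, so reads of a pair or trio can be assigned to the wrong copy. How reads that map to several places were counted is not given in the sources used here, and the value of each single copy is uncertain for that reason. The only annotated overlap is that of Cyp4a12b with Gm12837, a processed pseudogene on the opposite strand that had 0 counts in the series.

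Per length, Cyp4b1 was the most abundant of the 7 genes in every mouse. FPKM, the count scaled to gene length and library size, allows levels of different genes to be compared. Cyp4b1 stood at 1862 ± 454 FPKM (SD, n = 3) in 18 mo mice, against 89.6 ± 21.0 FPKM for Cyp4a10, 85.6 ± 19.2 FPKM for Cyp4a31 and 68.0 ± 19.4 FPKM for Cyp4a12a. The ranges of Cyp4a10, Cyp4a31 and Cyp4a12a overlapped, so their order was not resolved. Cyp4a14 at 16.3 ± 6.39 FPKM and Cyp4a12b at 9.57 ± 3.42 FPKM followed, with overlapping ranges, and Cyp4a32 at 2.54 ± 1.09 FPKM came last in 18 mo mice. In the 21 mo group the order of means was Cyp4b1, Cyp4a14, Cyp4a10, Cyp4a31, Cyp4a12a, Cyp4a12b and Cyp4a32. Cyp4a14 thus stood in the second place in place of the fifth, although the ranges of its neighbours overlapped with its own. In the 21 mo/O304 group Cyp4a14 was again in the fifth place, below Cyp4a12a and above Cyp4a12b, with no overlap on either side.

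**Figure D1:**
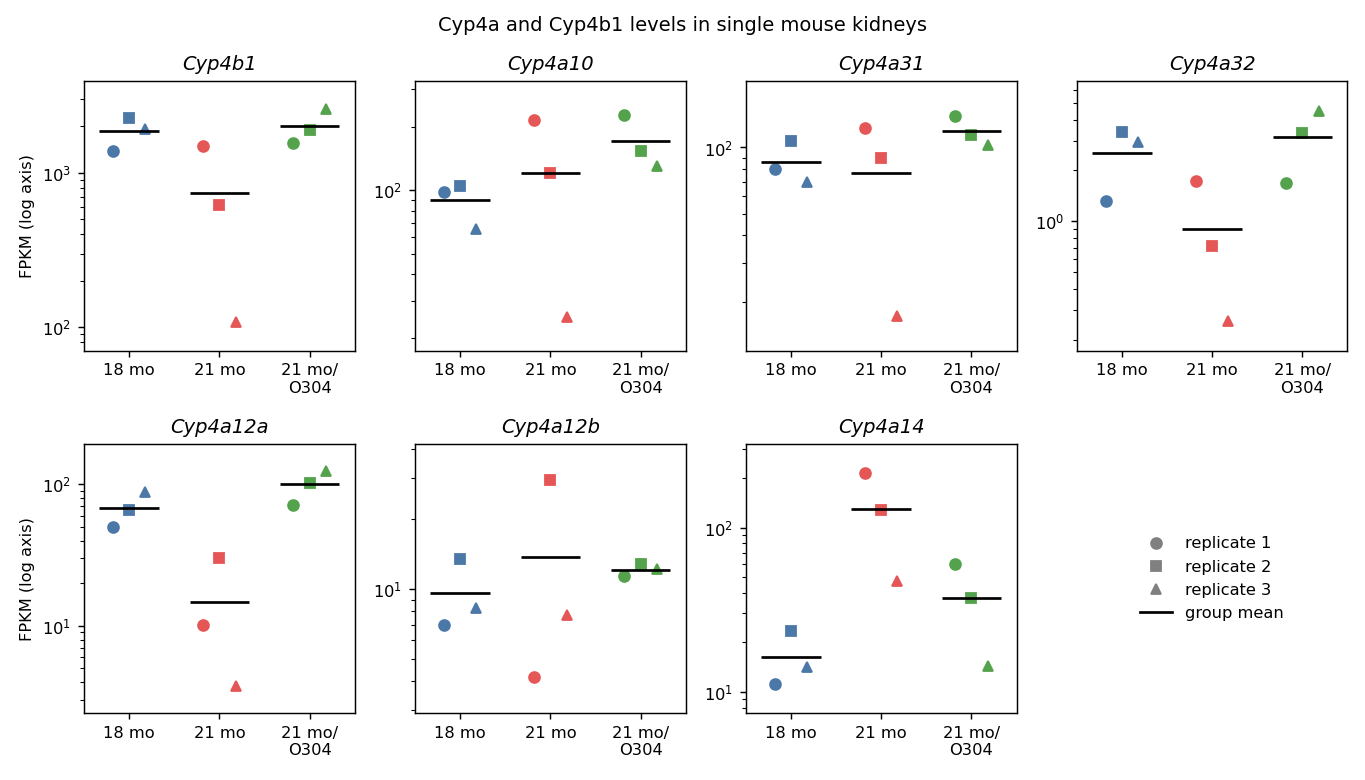
FPKM (log axis) of the 7 genes in each mouse, with a panel per gene, a marker shape per replicate number and a bar at the group mean. Replicate 3 of the 21 mo group is the lowest point of Cyp4b1, Cyp4a10, Cyp4a31, Cyp4a32 and Cyp4a12a, and the 21 mo points of Cyp4a14 lie above all those of the 18 mo group.

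Cyp4b1, the hydroxylase that also handles foreign compounds, was at 1379, 2280.2 and 1928 FPKM in replicates 1, 2 and 3 of the 18 mo group. It was at 1491, 619 and 108 FPKM in 21 mo mice and at 1557, 1891 and 2584.5 FPKM in 21 mo/O304 mice. The 3 mice of the 21 mo group spanned more than a factor of 10, and the highest of them lay inside the 18 mo range but below every 21 mo/O304 mouse. Cyp4b1 was among the 18 most abundant genes of each library per length in the 18 mo and 21 mo/O304 groups, whereas in 21 mo mice it ranked 17, 42 and 359. In the edgeR fit across all genes its log2 fold change (log2FC) was −1.33 (SE 0.74, adjusted p = 0.282) for 21 mo against 18 mo and 1.44 (SE 0.74, adjusted p = 0.291) for 21 mo/O304 against 21 mo. Neither passed the test, and for the latter the groups did not overlap, as held for 21.3% of all genes tested. Without replicate 1 of the 21 mo group the values of Cyp4b1 were −2.34 and 2.45, and with each library left out in turn they ranged from −2.34 to −0.83 and from 0.94 to 2.45.

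Cyp4a10, a PPARα target, was at 98.0, 105 and 65.7 FPKM in 18 mo mice. The 21 mo mice had 215, 121 and 25.2 FPKM, and the 21 mo/O304 mice had 227, 154 and 129.9 FPKM. The 21 mo values lay on both sides of the 18 mo range, while all 3 of the 21 mo/O304 mice were above it. The log2FC of Cyp4a10 was 0.43 (SE 0.60, adjusted p = 0.674) for 21 mo against 18 mo, 0.50 (SE 0.60, adjusted p = 0.630) for 21 mo/O304 against 21 mo and 0.93 (SE 0.60, adjusted p = 0.665) for 21 mo/O304 against 18 mo. In the last of these the groups did not overlap, as held for 26.5% of all genes tested. Without replicate 1 of the 21 mo group, the log2FC of Cyp4a10 for 21 mo against 18 mo turned to −0.28, and that for 21 mo/O304 against 21 mo was 1.21.

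Cyp4a31, a close copy of Cyp4a10, was at 80.2, 107 and 69.7 FPKM in 18 mo mice, at 123, 89.3 and 17.3 FPKM in 21 mo mice and at 139, 114 and 102 FPKM in 21 mo/O304 mice. Its values followed those of Cyp4a10 from mouse to mouse, with a ratio of Cyp4a10 to Cyp4a31 between 0.943 and 1.75 in all libraries. That ratio was 0.943 to 1.22 in 18 mo mice, 1.35 to 1.75 in 21 mo mice and 1.27 to 1.64 in 21 mo/O304 mice. Both later groups lay above the 18 mo range (exact permutation test, two-sided, p = 0.1 for each, n = 3 per group, the smallest p this design allows). The 21 mo and 21 mo/O304 ranges overlapped. The log2FC of Cyp4a31 was −0.16 (SE 0.54, adjusted p = 0.874) for 21 mo against 18 mo and 0.62 (SE 0.55, adjusted p = 0.508) for 21 mo/O304 against 21 mo. Without replicate 3 of the 21 mo group the former turned to 0.30, and without replicate 2 of the 18 mo group to 0.019. Its direction thus depended on single mice and was not resolved.

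Cyp4a32, the least abundant copy, was counted on 34, 86 and 82 reads in 18 mo mice, on 41, 20 and 9 reads in 21 mo mice and on 46, 88 and 112 reads in 21 mo/O304 mice. At these depths counting error is part of its spread. The corresponding FPKM were 1.31, 3.39 and 2.93, then 1.73, 0.718 and 0.258, then 1.69, 3.32 and 4.50. Its 21 mo mice were low, but the highest of them overlapped both other groups. The log2FC was −1.51 (SE 0.66, adjusted p = 0.188) for 21 mo against 18 mo and 1.83 (SE 0.66, adjusted p = 0.196) for 21 mo/O304 against 21 mo. A fit that omitted 21 mo replicate 1 gave Cyp4a32 values of −2.37 and 2.70. The level of Cyp4a32 went with that of Cyp4b1, its neighbour on the chromosome, more than with that of the copy on its other side. Over the 9 libraries the Pearson correlation of log2 CPM was 0.95 between Cyp4a32 and Cyp4b1 and 0.73 between Cyp4a32 and Cyp4a31.

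Cyp4a12a, the androgen-induced arachidonic acid hydroxylase, was at 49.5, 66.2 and 88.3 FPKM in 18 mo mice. The 21 mo mice had 10.2, 30.0 and 3.73 FPKM, and the 21 mo/O304 mice had 71.8, 103 and 125 FPKM. Every 21 mo mouse was below every mouse of both other groups, and the 18 mo and 21 mo/O304 ranges overlapped. The fitted level was 4.64-fold lower in 21 mo than in 18 mo mice, a log2FC of −2.21 (SE 0.63, adjusted p = 0.0879). It was 6.81-fold higher in 21 mo/O304 than in 21 mo mice, a log2FC of 2.77 (SE 0.64, adjusted p = 0.175). A fit that omitted 21 mo replicate 2 gave log2FC values of −3.30 and 3.85, and over all libraries omitted in turn they ranged from −3.30 to −1.77 and from 2.32 to 3.85. Cyp4a12a ranked 172 by p among the 15902 genes of that contrast, of which none passed the threshold. Unlike Cyp4a32 and Cyp4b1, Cyp4a12a was already low in replicate 1 of the 21 mo group. The proximal tubule markers of that mouse summed to close to the lowest 18 mo library. Their median log2 difference from the 18 mo mean was 0.147 there, inside the 18 mo range of −0.153 to 0.155.

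Cyp4a12b, the near-identical copy of Cyp4a12a, followed another pattern, although it too was below the 18 mo range in replicate 1 of the 21 mo group. It was at 6.96, 13.4 and 8.30 FPKM in 18 mo mice, at 4.17, 29.5 and 7.69 FPKM in 21 mo mice and at 11.3, 12.8 and 12.2 FPKM in 21 mo/O304 mice. The 21 mo group held both the lowest and the highest mouse of the series, and its log2FC of 0.54 (SE 0.60, adjusted p = 0.589) against 18 mo rested on replicate 2. Without that mouse it was −0.69 against 18 mo, and the log2FC of 21 mo/O304 against 21 mo went from −0.19 (SE 0.59, adjusted p = 0.864) to 1.02. The ratio of Cyp4a12a to Cyp4a12b was 7.11, 4.92 and 10.6 in 18 mo mice, 2.44, 1.02 and 0.485 in 21 mo mice and 6.32, 8.02 and 10.2 in 21 mo/O304 mice. The 21 mo ratios were all below those of both other groups (exact permutation test, two-sided, p = 0.1 for each, n = 3 per group).

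Cyp4a14, the other classical PPARα target, was at 11.1, 23.4 and 14.2 FPKM in 18 mo mice. The 21 mo mice had 215, 129 and 47.2 FPKM, and the 21 mo/O304 mice had 60.2, 37.1 and 14.4 FPKM. Every 21 mo mouse was above every 18 mo mouse, including replicate 3, in which all other members but Cyp4a12b were at their lowest. The highest 21 mo/O304 mouse lay above the lowest 21 mo mouse. The fitted level of Cyp4a14 was 8.04-fold higher in 21 mo than in 18 mo mice, a log2FC of 3.01 (95% interval 1.54 to 4.47, SE 0.65, adjusted p = 0.0631). For 21 mo/O304 against 21 mo it was 3.50-fold lower, a log2FC of −1.81 (SE 0.62, adjusted p = 0.186), and for 21 mo/O304 against 18 mo the log2FC was 1.20 (SE 0.61, adjusted p = 0.572). The difference from 18 mo thus missed the threshold in this fit. It passed in 6 of 20 alternative fits, which called between 0.806% and 61.8% of all genes they tested. With each library left out in turn the log2FC of Cyp4a14 ranged from 2.46 to 3.39. Its largest value, 4.45, came from scaling to proximal tubule markers, where the median of all genes was 2.28. Without replicate 1 of the 21 mo group the adjusted p was 0.0218 at a log2FC of 2.46, beside 25.4% of genes called. Without replicate 3 it was 0.0481 at 3.39, beside 0.806%.

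Cyp4a14 took a larger share of Cyp4a RNA in each 21 mo mouse than in any other mouse. Cyp4a14 made up 4.51%, 7.36% and 5.72% of the summed FPKM of the 6 Cyp4a genes in 18 mo mice. Its share was 37.8%, 32.3% and 46.5% in 21 mo mice, and 11.8%, 8.77% and 3.71% in 21 mo/O304 mice. No 21 mo mouse overlapped with either other group in this share (exact permutation test, two-sided, p = 0.1 for each, n = 3 per group). The share of Cyp4a12a went the other way, with 20.0%, 20.8% and 35.4% in 18 mo mice, 1.79%, 7.53% and 3.68% in 21 mo mice and 14.1%, 24.3% and 32.2% in 21 mo/O304 mice. Cyp4a10 kept a share of 24.8% to 44.4% in all libraries, and its groups overlapped. The share of Cyp4a31 was 31.3 ± 2.97% in 18 mo mice, 20.4 ± 2.86% in 21 mo mice and 26.8 ± 0.401% in 21 mo/O304 mice (SD, n = 3 each).

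These shares and ratios do not depend on how a library was scaled. The ratio of Cyp4a14 to Cyp4a10, both PPARα targets, was 0.114, 0.223 and 0.217 in 18 mo mice, 1.00, 1.07 and 1.87 in 21 mo mice and 0.266, 0.241 and 0.111 in 21 mo/O304 mice. The ratio of Cyp4a14 to Cyp4a12a was 0.161 to 0.354 in 18 mo mice, 4.29 to 21.1 in 21 mo mice and 0.115 to 0.839 in 21 mo/O304 mice. The summed FPKM of the Cyp4a genes was less distinct, at 247, 318 and 249 in 18 mo mice, 569, 399 and 101 in 21 mo mice and 510.2, 423 and 388 in 21 mo/O304 mice. In all, 54 exact permutation tests were made of shares, sums and ratios, of which 26 reached p = 0.1, the smallest that 3 mice against 3 allow, and the smallest value after Benjamini-Hochberg adjustment was 0.208. No share, sum or ratio therefore passed a threshold.

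**Figure D2:**
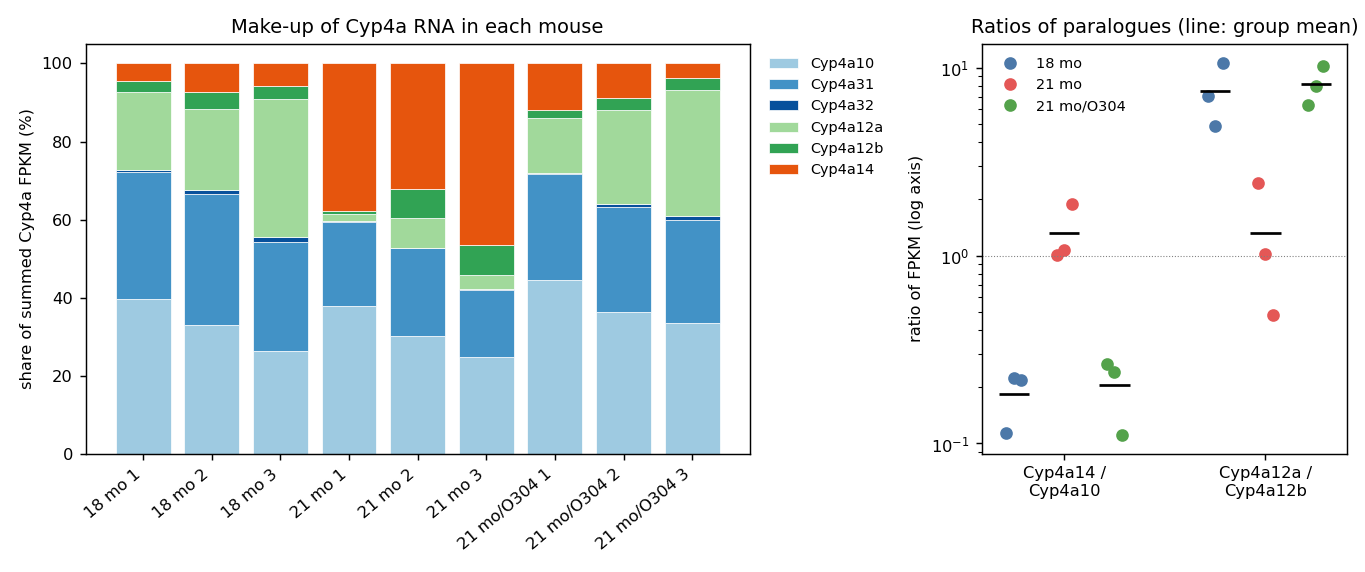
Left, share (%) of each Cyp4a gene in the summed Cyp4a FPKM of each mouse; right, ratios of FPKM between paralogues on a log axis, with a point per mouse and a line at the group mean. Cyp4a14 takes 32.3% to 46.5% of the sum in the 21 mo mice and at most 11.8% in the others.

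The comparison of 21 mo with 18 mo asks what differs after 12 weeks with a single kidney and saline. Cyp4a14 was higher and Cyp4a12a, Cyp4a32 and Cyp4b1 were lower in the means, but the edgeR quasi-likelihood test called 0 of the 7 members at an adjusted p under 0.05, where 0.0189% of all genes tested were called. At an unadjusted p under 0.05 there were 3 members, namely Cyp4a14 higher and Cyp4a12a and Cyp4a32 lower, or 3 of 7 beside 26.1% of all genes (14.0% were higher). Groups did not overlap for 2 of the 7, Cyp4a14 and Cyp4a12a, beside 28.8% of all genes, a share near the background. DESeq2 called Cyp4a14 (adjusted p = 3.91e-05) and Cyp4a12a (adjusted p = 0.004), beside 7.31% of the genes it tested (4.10% higher and 3.21% lower). With all genes of at least 1 count kept, edgeR called Cyp4a14 (adjusted p = 0.0252), beside 2.04% of genes. Without replicate 1 of the 21 mo group it called Cyp4a14, Cyp4a32 (adjusted p = 0.03) and Cyp4b1 (adjusted p = 0.037), beside 25.4%, and without replicate 3 it called Cyp4a14, beside 0.806%. Limma voom with sample quality weights called 5 of the 7, beside 52.9% of all genes, and it gave replicate 2 of the 21 mo group a weight of 9.11 against 0.223 and 0.132 for replicates 1 and 3.

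The comparison of 21 mo/O304 with 21 mo asks what O304 changed at equal age. Cyp4a12a, Cyp4a32 and Cyp4b1 were higher and Cyp4a14 was lower in the means of treated mice, the reverse of the signs seen with time. The 21 mo libraries enter both comparisons, so the opposite signs are not independent of each other. edgeR called 0 of 7 members, and 0.00% of all genes tested. The unadjusted p was under 0.05 for Cyp4a12a and Cyp4a32, which were higher, and for Cyp4a14, which was lower, beside 20.7% of all genes (8.27% higher and 12.4% lower). Groups did not overlap for Cyp4a12a and Cyp4b1, or 2 of 7 beside 21.3% of all genes. DESeq2 called Cyp4a12a (adjusted p = 0.000451) and Cyp4a14 (adjusted p = 0.0359), beside 3.36% of the genes it tested (1.00% higher and 2.36% lower). Voom called 5 of 7, beside 41.1%. Without replicate 1 of the 21 mo group edgeR called Cyp4a12a (adjusted p = 0.0403), Cyp4a32 (adjusted p = 0.023) and Cyp4b1 (adjusted p = 0.0346), all higher in treated mice, beside 23.1% of all genes.

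In the comparison of 21 mo/O304 with 18 mo, all 7 fitted log2FC values were above 0, from 0.11 for Cyp4b1 to 1.20 for Cyp4a14, with a median of 0.47. None had an unadjusted p under 0.05, beside 9.66% of all genes tested (4.33% higher and 5.33% lower), and none passed the threshold, beside 0.00% with edgeR and 0.447% with DESeq2. The 95% interval of Cyp4b1 ran from −1.54 to 1.76 and that of Cyp4a12a from −0.81 to 1.92. Differences of several-fold thus lay inside the intervals of this fit, whose spread is shared with the 21 mo mice. On only the 6 libraries compared, the SE of Cyp4b1 was 0.23 in place of 0.73, and that of Cyp4a12a 0.24 in place of 0.60. In that fit 3 of 7 members, Cyp4a10, Cyp4a14 and Cyp4a31, had an unadjusted p under 0.05, beside 3115 of 15308 genes. None of the 7 passed the threshold there, beside 0.144% of genes.

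**Figure D3:**
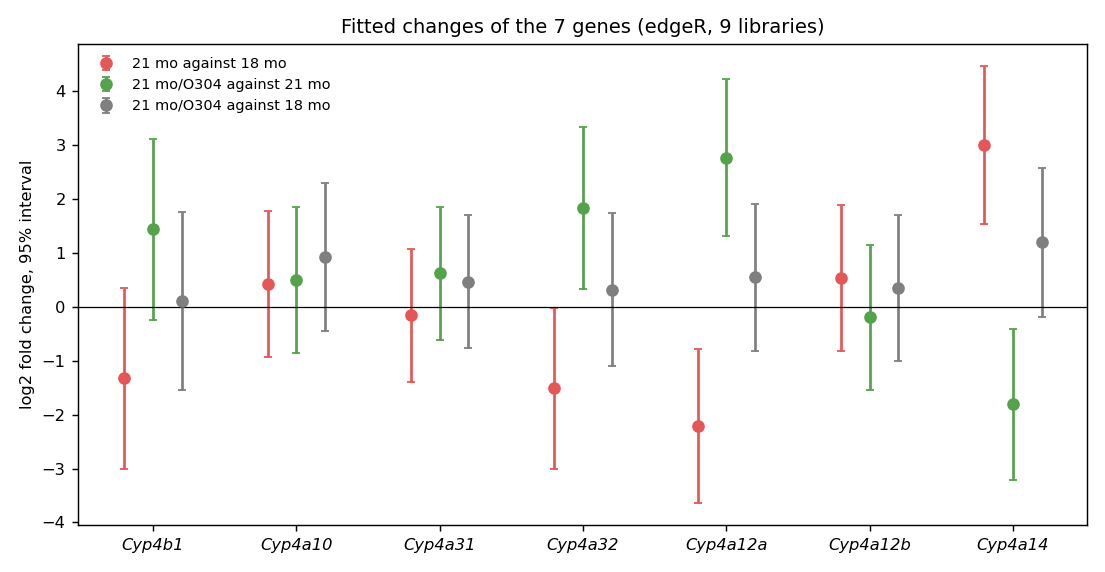
Fitted log2FC (points) with its 95% interval (bars) for the 7 genes in the 3 contrasts, from edgeR on 9 libraries. Cyp4a14 stands at 3.01 and Cyp4a12a at −2.21 for 21 mo against 18 mo, and for both the point for 21 mo/O304 against 21 mo lies on the other side of 0.

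Sums over near-identical copies do not depend on how reads were split between them. Cyp4a12a and Cyp4a12b together had a log2FC of −1.45 (SE 0.57, adjusted p = 0.155) for 21 mo against 18 mo and 1.98 (SE 0.58, adjusted p = 0.175) for 21 mo/O304 against 21 mo. Cyp4a10, Cyp4a31 and Cyp4a32 together had 0.14 (SE 0.58, adjusted p = 0.900) and 0.56 (SE 0.58, adjusted p = 0.573) in the same order. The direction of Cyp4a12a was therefore also that of the pair, at a smaller size. Cyp4a12a was the larger part of the pair in 18 mo mice, at a mean of 68.0 FPKM beside 9.57 FPKM for Cyp4a12b. The summed FPKM of the pair was 56.5 to 96.6 in 18 mo mice and 11.4 to 59.5 in 21 mo mice. Unlike those of Cyp4a12a alone, these ranges overlapped. The 21 mo/O304 mice, at 83.1 to 137 FPKM, lay above the 21 mo range. The trio as a whole lay close to 0 for 21 mo against 18 mo.

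The proximal tubule markers varied between the 21 mo mice along with several members, so, as a step added after the data were seen, each gene was also expressed per marker level, as the log2 difference from the 18 mo mean. On this scale Cyp4b1 was at −0.35, −0.28 and −0.58 in the 21 mo mice, against −0.29, −1.56 and −4.07 when scaled to the whole library. Most of the spread of Cyp4b1 among the 21 mo mice was thus shared with the markers. Cyp4a14 was at 3.74, 4.33 and 5.11 per marker, and Cyp4a10 at 1.23, 1.73 and 1.70, so both were above the 18 mo mean in each 21 mo mouse. Cyp4a12a was at −2.76, 0.13 and −0.64 per marker, and Cyp4a12b at −1.20, 2.96 and 3.25. The low Cyp4a12a of replicate 1 thus remained on this scale, whereas that of replicates 2 and 3 was close to the markers. In the 21 mo/O304 mice Cyp4a14 was at 1.90, 1.20 and −0.012 per marker.

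This scaling moved the whole transcriptome. The median log2FC of all genes went from 0.03 to 2.28 for 21 mo against 18 mo and from −0.02 to −2.29 for 21 mo/O304 against 21 mo. Against that shift, the fitted 4.45 of Cyp4a14 was above the median gene, the 2.52 of Cyp4a12b was near it, and Cyp4a10 at 1.54, Cyp4a31 at 1.05, Cyp4a32 at −0.28, Cyp4b1 at −0.41 and Cyp4a12a at −0.70 were below it. For 21 mo/O304 against 21 mo the fitted value of Cyp4a14 was −3.27, that of Cyp4a12b −2.16 and that of Cyp4a12a 1.27. The signs of Cyp4a31 for 21 mo against 18 mo, and of Cyp4a10 and Cyp4a31 for 21 mo/O304 against 21 mo, changed with the scaling. The test called Cyp4a14 and Cyp4a12b, 2 of the 7 members, in each of the 2 contrasts, beside 61.8% and 63.1% of all genes.

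**Figure D4:**
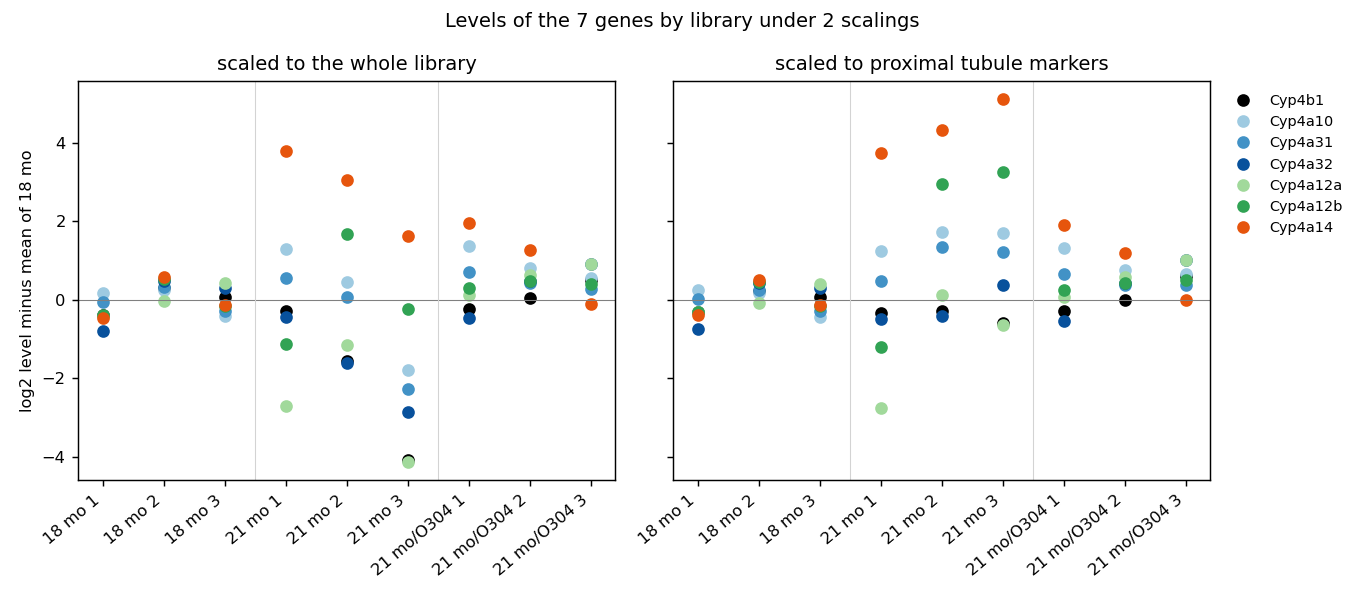
Log2 level of the 7 genes in each library minus the mean of the 18 mo group, scaled to the whole library (left) and to proximal tubule markers (right). The 21 mo points of Cyp4b1 lie between −4.07 and −0.29 on the left and between −0.58 and −0.28 on the right, while those of Cyp4a14 are above 0 in both panels.

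Markers of other cells differed between these groups too. The 11 leukocyte markers summed to 174 to 309.9 CPM in 18 mo mice, 540.2 to 2534 CPM in 21 mo mice and 387 to 398 CPM in 21 mo/O304 mice. Of the 10 leukocyte markers that passed the filter, 9 had positive values for 21 mo against 18 mo. The 11 fibroblast markers summed to 216 to 318, 169.6 to 1563 and 132 to 333 CPM in the same order. Scaled to the whole library, Cyp4a14 had its highest 21 mo value in replicate 1, which had the lowest sums of both lists in that group. Per proximal tubule marker, Cyp4a14 was highest in replicate 3, at 5.11, and lowest in replicate 1, at 3.74. The 11 adipocyte markers summed to 47.9 to 94.4, 44.7 to 133 and 115 to 312 CPM, and their median log2FC for 21 mo/O304 against 21 mo was 3.93. Adipoq, which marks adipocytes, was at 0 in replicates 1 and 2 of the 18 mo group and in replicate 2 of the 21 mo group. The 8 endothelial markers had a median of −0.32 for 21 mo against 18 mo and the 12 markers of other nephron segments one of 0.10. The part of these cells in the values of the 7 genes was not tested.

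Other Cyp4 genes hydroxylate further fatty acids and leukotrienes. Of the 16 on the list 8 passed the filter, and 0 passed the test in either contrast. Cyp4f18, which acts on leukotriene B4 and is expressed in myeloid cells, had 2.24 ± 0.397 CPM in 18 mo mice, 10.4 ± 8.69 CPM in 21 mo mice and 4.50 ± 0.816 CPM in 21 mo/O304 mice (SD, n = 3 each). Its log2FC was 2.22 (SE 0.53, adjusted p = 0.0729) for 21 mo against 18 mo. Cyp4v3, a broadly expressed fatty acid hydroxylase, had log2FC values of 1.35 (SE 0.43, adjusted p = 0.102) and −1.0 (SE 0.42, adjusted p = 0.229) for the first and the second contrast. Cyp4f16 followed with 0.80 (SE 0.31, adjusted p = 0.149) in the first and −1.15 (SE 0.31, adjusted p = 0.175) in the second. Cyp4f13 had −0.38 (SE 0.16, adjusted p = 0.179) and 0.13 (SE 0.16, adjusted p = 0.644). Cyp4f18, Cyp4v3 and Cyp4f16 were highest in replicate 3 of the 21 mo group, the mouse in which most members were lowest.

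Of 45 tested PPARα target genes other than the members, 0 passed the test in any contrast. For 21 mo against 18 mo, 16 had positive and 29 negative log2FC values with a median of −0.21, beside 0.03 for all genes. For 21 mo/O304 against 21 mo, 39 of the 45 were positive with a median of 0.47, beside −0.02 for all genes. Cyp4a14 thus had the sign opposite to the list median in both contrasts. Txnip, an inhibitor of thioredoxin, was at 259 ± 24 CPM in 18 mo mice and 508 ± 35.2 CPM in 21 mo mice (SD, n = 3 each), a log2FC of 0.97 (SE 0.18, adjusted p = 0.0626). Pdk4, a kinase that turns off pyruvate dehydrogenase in fasting, had a log2FC of 1.84 (SE 0.49, adjusted p = 0.0829) for 21 mo against 18 mo. Pdk4 was at 101, 85.4 and 19.9 CPM in the 21 mo mice, highest in replicate 1 and lowest in replicate 3 as Cyp4a14 was. Acaa1a, a thiolase of peroxisomes, had −0.56 (SE 0.18, adjusted p = 0.107) and Fabp3, a fatty acid carrier, −0.82 (SE 0.27, adjusted p = 0.112). In the second contrast Cidec, a lipid droplet protein that also marks adipocytes, had 3.47 (SE 0.92, adjusted p = 0.175).

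The enzymes that follow omega-hydroxylation turn the product into a dicarboxylic acid and shorten it in peroxisomes. Of 18 tested, 0 passed, 16 were lower in 21 mo than in 18 mo mice with a median log2FC of −0.38, and 17 were higher in 21 mo/O304 than in 21 mo mice with a median of 0.55. Aldh3a2, the fatty aldehyde dehydrogenase, was at 347 ± 54.4, 192 ± 99.1 and 366 ± 21.3 CPM in the 18 mo, 21 mo and 21 mo/O304 groups (SD, n = 3 each). Its log2FC was −0.86 (SE 0.34, adjusted p = 0.157) in the first contrast and 0.93 (SE 0.34, adjusted p = 0.198) in the second. Pex5, the import receptor of peroxisomes, had −0.67 (SE 0.21, adjusted p = 0.101) in the first contrast. The alcohol dehydrogenases Adh5 and Adh1 had −0.51 (SE 0.21, adjusted p = 0.176) and −0.70 (SE 0.29, adjusted p = 0.176).

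Cytochromes P450 need an electron donor, and the 4 genes for this were lower in 21 mo mice in their fitted values. Por, the reductase that serves all microsomal P450s, was at 434 ± 34.8 CPM in 18 mo mice, 237 ± 69.3 CPM in 21 mo mice and 351 ± 18.7 CPM in 21 mo/O304 mice (SD, n = 3 each). Its log2FC was −0.87 (SE 0.21, adjusted p = 0.0758) in the first contrast and 0.57 (SE 0.21, adjusted p = 0.201) in the second. Cyb5a, the microsomal cytochrome b5, had −0.96 (SE 0.42, adjusted p = 0.184) and 1.00 (SE 0.42, adjusted p = 0.225). Cyb5b and Cyb5r3 had −0.36 (SE 0.28, adjusted p = 0.435) and −0.15 (SE 0.15, adjusted p = 0.550) in the first contrast. None of the 4 passed the test.

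Of 15 tested nuclear receptors and coregulators 0 passed, and 13 were lower in 21 mo than in 18 mo mice with a median of −0.26. Ppara, which encodes PPARα itself, was at 45.5, 54.2 and 69.0 CPM in 18 mo mice, 78.8, 47.9 and 19.2 CPM in 21 mo mice and 52.7, 74.0 and 74.3 CPM in 21 mo/O304 mice. Its log2FC was −0.21 (SE 0.42, adjusted p = 0.770) in the first contrast and 0.46 (SE 0.42, adjusted p = 0.519) in the second, with overlapping groups. Rxrb, a partner receptor of PPARα, had −0.52 (SE 0.12, adjusted p = 0.0716) and its relative Rxra −0.65 (SE 0.23, adjusted p = 0.123). Ppargc1b, a coactivator of oxidative genes, had −0.98 (SE 0.28, adjusted p = 0.0858).

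The genes known to respond to androgen in the kidney were set beside Cyp4a12a. Whether androgen had a part in its level was not tested. Of 17 tested, 0 passed, 16 were lower in 21 mo than in 18 mo mice with a median of −0.79, and 16 were higher in 21 mo/O304 than in 21 mo mice with a median of 1.36. Slco1a1, an organic anion transporter of the male proximal tubule, was at 152, 345 and 285 CPM in 18 mo mice, 35.4, 25.4 and 1.60 CPM in 21 mo mice and 239, 307 and 786 CPM in 21 mo/O304 mice. Its log2FC was −3.65 (SE 0.94, adjusted p = 0.0792) in the first contrast and 4.42 (SE 0.98, adjusted p = 0.175) in the second. Slco1a1 was below the 18 mo range in replicate 1 of the 21 mo group, as Cyp4a12a was, whereas the summed level of the list was inside it. The 17 genes of the list summed to 25251 CPM in that mouse, against 24347 to 32923 CPM in 18 mo mice. They summed to 5900.0 and 1095 CPM in replicates 2 and 3. The median log2 difference of the list from the 18 mo mean was −0.16, −1.19 and −3.31 in the 21 mo mice, beside 0.15, −1.08 and −2.80 for the proximal tubule markers. In 18 mo mice the median of the list was −0.091, 0.23 and −0.086, so by this measure replicate 1 was slightly below them. Odc1, the first enzyme of polyamine synthesis, had −1.32 (SE 0.42, adjusted p = 0.101) and 1.65 (SE 0.42, adjusted p = 0.175). Ugt2b38, a glucuronosyltransferase, had −1.35 (SE 0.49, adjusted p = 0.131) and 1.99 (SE 0.50, adjusted p = 0.175). Aoc1, a diamine oxidase, had the opposite signs, 2.69 (SE 0.71, adjusted p = 0.081) and −2.96 (SE 0.72, adjusted p = 0.175).

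The epoxygenase branch competes with omega-hydroxylation for arachidonic acid. Of its 8 tested genes 0 passed. Ephx1, the microsomal epoxide hydrolase, was at 44.1 ± 11.0, 90.5 ± 30.0 and 34.2 ± 1.55 CPM in the 3 groups (SD, n = 3 each), with log2FC values of 1.04 (SE 0.26, adjusted p = 0.077) and −1.40 (SE 0.26, adjusted p = 0.175). Ephx2, the soluble epoxide hydrolase, had −0.83 (SE 0.42, adjusted p = 0.242) and 1.20 (SE 0.42, adjusted p = 0.190). Cyp2j9, an epoxygenase, had −0.75 (SE 0.26, adjusted p = 0.124) in the first contrast.

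Over the 9 libraries, the members fell into different patterns. The Pearson correlation of log2 CPM was 0.95 between Cyp4a10 and Cyp4a31 and 0.88 between Cyp4a31 and Cyp4b1, but −0.56 between Cyp4a12a and Cyp4a14 and 0.0094 between Cyp4a12b and Cyp4b1. The libraries share the group differences and the range of proximal tubule marker levels, so these values are descriptions only. Among tested protein-coding genes other than members, those with a pattern close to that of Cyp4b1 included 4833439L19Rik and 4931406C07Rik (both r = 0.996). Cyp4a12a was most like Dusp19 (r = 0.958), Cnst (r = 0.956) and Slco1a1 (r = 0.952). Cyp4a14 was most like Rps6ka3, a ribosomal S6 kinase (r = 0.978), Abcc4, an exporter of organic anions (r = 0.973), and Exosc9 (r = 0.956). Abcc4 was at a mean of 48.9, 165 and 87.8 CPM in the 18 mo, 21 mo and 21 mo/O304 groups.

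Cyp4a10 was most like Ptpn4 (r = 0.981), the insulin receptor gene Insr (r = 0.979) and Hadhb, a subunit of the mitochondrial trifunctional protein (r = 0.977). Cyp4a31 was most like Esrrg, an orphan nuclear receptor of oxidative tissues (r = 0.993), Vstm2a (r = 0.990) and Gclm, which serves glutathione synthesis (r = 0.987). Cyp4a32 was most like Slc18a1 (r = 0.985), Nadk (r = 0.982) and Pdss1 (r = 0.979). The best matches of Cyp4a12b were weaker, with Ccdc25 at r = 0.927, Pcf11 at 0.923 and Ap1g2 at 0.909.

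The order of the genes along the chromosome was set beside their differences, with no test. Between the first and the last of the 7 genes the table lists 7 other genes, of which only Cyp4b1-ps2, an unprocessed pseudogene, passed the filter. It had 0 to 78 counts per library and a log2FC of 0.28 (SE 1.62, adjusted p = 0.925) for 21 mo against 18 mo. Cyp4a29, next to Cyp4a12a, had 0 counts in every library, and Cyp4a30b, which lies between Cyp4a12b and Cyp4a14, had 1, 1 and 2 counts in the 21 mo mice and 0 in the others. From Cyp4a12a to Cyp4b1 in order of position, the log2FC values for 21 mo against 18 mo were −2.21, 0.54, 3.01, 0.43, −0.16, −1.51 and −1.33, so they were highest at Cyp4a14 and lower on both sides of it. Efcab14, the first tested gene beyond Cyp4b1, had 0.09 (SE 0.14, adjusted p = 0.691) for 21 mo against 18 mo and 0.24 (SE 0.14, adjusted p = 0.337) for 21 mo/O304 against 21 mo.

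**Figure D5:**
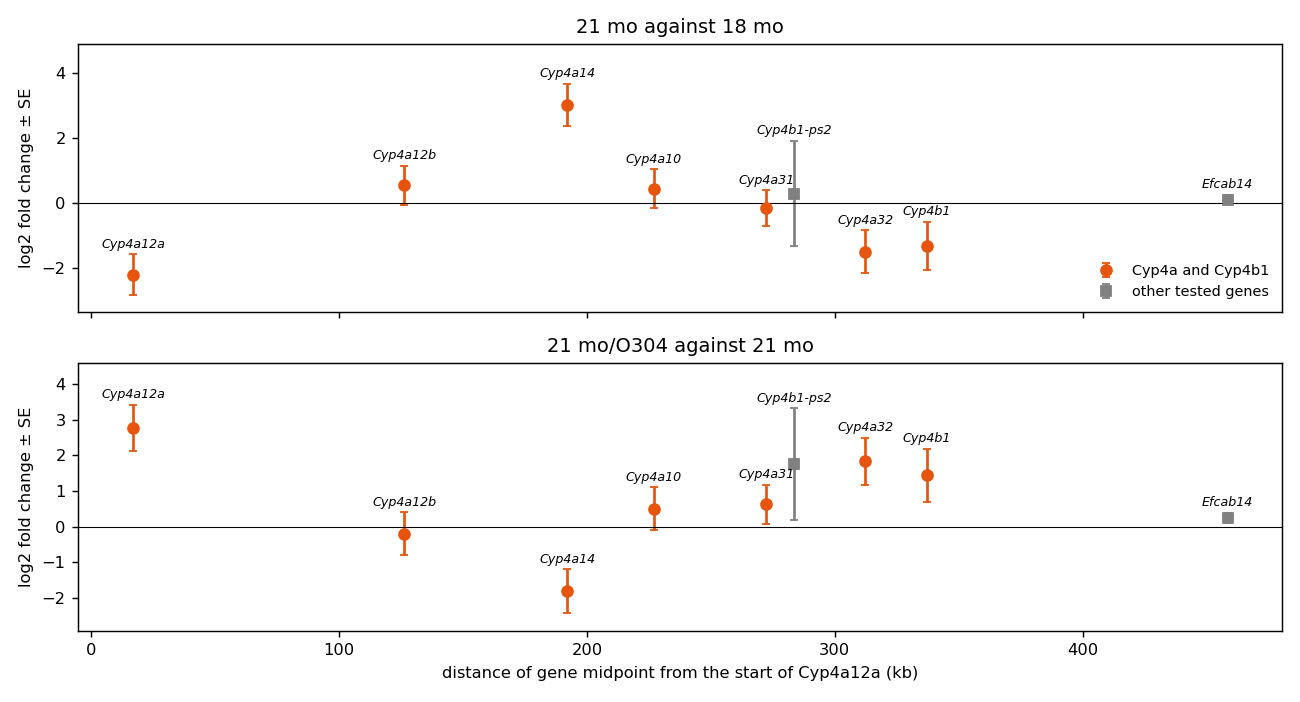
Log2FC ± SE of the tested genes along the cluster, by distance (kb) of the gene midpoint from the start of Cyp4a12a, for 21 mo against 18 mo (top) and 21 mo/O304 against 21 mo (bottom). Cyp4a14 stands above its neighbours in the top panel and below them in the bottom panel, and Efcab14 beyond the cluster lies near 0 in both.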

How the data were processed

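Kidney RNA of 9 mice was sequenced as 1 library per mouse, 3 per group. Per the labels, reads were aligned with HISAT2 (version 2.0.5) to GRCm38 and counted with featureCounts (version 1.5.0-p3). The deposited counts are whole numbers per gene without normalization, and the deposited FPKM were computed by the authors from the counts and gene lengths. The table also holds the authors' own DESeq2 comparisons (fold changes and p-values), which were not used. Whether strand was used, and what became of multi-mapping reads, is not given in the sources used here.

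Starting from the counts, genes were filtered with filterByExpr (minimum count 10, minimum total 15), scaled by TMM and tested with the quasi-likelihood test of edgeR 4.0.16 (R 4.3.3) on all 9 libraries with 3 group means. P-values are two-sided and were adjusted by Benjamini-Hochberg over all 15902 genes, with a threshold of 0.05. CPM are TMM-scaled, and log2 CPM has a prior count of 2. Single values were compared by exact permutation tests. Nothing states that mice of a group were housed or handled apart, so p-values measure the spread between these mice. The members, gene lists and tests were chosen with earlier results of these data known. Named are all members, up to 4 genes per list with the smallest p for 21 mo against 18 mo and up to 2 for 21 mo/O304 against 21 mo, the neighbours of the members on the chromosome and the 3 genes most like each member. Ppara was added after its values were seen. Some genes that this rule names are not reported here. RefSeq's annotation of GRCm38.p6 was used for checking positions of the 7 genes. The fit across all genes was tested on simulated data with an equal spread in all groups. The spread of the real groups was unequal, which that test does not cover. Alternatives were DESeq2 1.42.0, other scalings and filters, fits on only the 6 libraries of a contrast, a block for replicate number, limma 3.58.1 (voom with quality weights, and trend on log2(FPKM + 1)), summed paralogues and each library left out. Scaling to proximal tubule markers was added after the data were seen.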

Additional observations from a re-analysis of the deposited data

How the results depend on the processing

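The count of members past the threshold was 0 in each contrast with edgeR. For 21 mo against 18 mo it was 2 with DESeq2, 1 with all genes of at least 1 count, 5 with voom quality weights, 2 with proximal tubule scaling (added after the data were seen) and 0 to 3 when a library was left out. Leaving out replicate 1 of the 21 mo mice gave 3, and leaving out replicate 3 gave 1. In 21 mo/O304 against 21 mo it was 2 with DESeq2, 5 with voom, 2 with proximal tubule scaling, and 0 to 3 over the left-out libraries, with 3 only without replicate 1 of the 21 mo group. The contrast of 21 mo/O304 with 18 mo had 0 throughout.

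Of all genes, 3 passed for 21 mo against 18 mo. There were 2059 with DESeq2, 576 with genes of at least 1 count, 8409 with voom, 0 in the 6 libraries compared and 0 to 4186 when a library was left out, with 0 without any of the 18 mo mice, 4186, 1 and 130 without replicates 1, 2 and 3 of the 21 mo group, and 1, 1 and 5 without those of the 21 mo/O304 group. In the contrast of 21 mo/O304 with 21 mo, 0 genes passed with edgeR (3289 at an unadjusted p under 0.05), 947 with DESeq2, 17 with genes of at least 1 count, 6528 with voom, and 0 to 3808 when a library was left out. The last was reached without replicate 1 of the 21 mo group, and 1 gene passed without replicate 2 of the 18 mo or replicate 3 of the 21 mo group. In that of 21 mo/O304 with 18 mo, 0 passed with edgeR (1536 unadjusted), 126 with DESeq2, 22 in the 6 libraries compared, 415 with voom and 0 to 12 with a library left out, 12 without replicate 3 of the 21 mo group. The cause of these moves was not tested.

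Of the members, directions turned as follows. For 21 mo against 18 mo, Cyp4a31 was 0.13 with voom and 1.05 with proximal tubule scaling, and Cyp4a10 was −0.0098 on FPKM. The value of Cyp4a12b for 21 mo/O304 against 21 mo was 0.24 on FPKM, and with proximal tubule scaling Cyp4a10 was −0.64 and Cyp4a31 −0.59. With a library left out, the range for 21 mo against 18 mo was −0.28 to 0.89 for Cyp4a10, −0.66 to 0.30 for Cyp4a31 and −0.69 to 0.98 for Cyp4a12b. It was −0.63 to 1.02 for Cyp4a12b in 21 mo/O304 against 21 mo, and −0.10 to 0.27 for Cyp4b1 and −0.0092 to 0.62 for Cyp4a32 in 21 mo/O304 against 18 mo. Of the 28 list genes named, 992 of 1006 alternative fits kept the direction. With voom in 21 mo/O304 against 21 mo, Fabp3 was −0.058, Cyb5r3 0.14 and Cyp2j9 −0.041, and Pdk4 was 0.15 on FPKM. With a library left out the ranges for 21 mo against 18 mo were −0.20 to 1.31 for Cidec and −0.73 to 0.15 for Ppara. They were, in 21 mo/O304 against 21 mo, −0.55 to 0.25 for Pdk4, −0.15 to 0.21 for Fabp3 and −0.14 to 0.066 for Cyb5r3.

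No pairing of the mice by replicate number was evident. Deviations of libraries with the same number correlated at −0.13 to 0.17, and not every library was most like those with its own number. With 3 libraries per group this check could not exclude pairing. With the replicate number as a block, 0 genes passed for 21 mo against 18 mo, in place of 3, Cyp4a12b was 0.23 and Pdk4 0.084 for 21 mo/O304 against 21 mo, and no other direction of a named gene turned.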
